A study of Mus musculus with 3 samples.

Results

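Keratins are the intermediate filament proteins of epithelial cells, and 10 keratin genes of the mouse epidermis were followed here among 24028 gene identifiers. The rule takes them by gene symbol and uses no measured value, although the set was drawn up with earlier results of these data known. They comprise 3 basal keratins (Krt5, Krt14 and Krt15), 4 suprabasal keratins (Krt1, Krt2, Krt10 and Krt77) and 3 stress keratins (Krt6a, Krt16 and Krt17). All 10 were in the table of counts and all 10 reached at least 10 counts in at least 1 library, the filter used for every gene below. The counts came from skin papillomas, benign epidermal tumours, of C57BL/6 mice treated with a carcinogen (DMBA) and then a tumour promoter (TPA). Wild-type mice with endogenous galectin-7, Lgals7-/- mice without it, and Tg46 mice, whose transgene expresses galectin-7 constitutively from the keratin 14 promoter, were compared. All 3 groups had received DMBA and TPA, and no untreated skin was analysed here. Each genotype is represented by 1 library made from 3 pooled tumours, which leaves every difference below without replication, and neither age nor sex appears in the labels used.

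A keratin filament is built from pairs of a type I and a type II keratin. In the epidermis, dividing cells of the basal layer make Krt5 (type II) with Krt14 (type I). Cells that leave this layer switch to Krt1 (type II) with Krt10 (type I), and Krt6a, Krt16 and Krt17 are known for appearing in wounded, inflamed and hyperproliferative epidermis, including papillomas.

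The library totals were 172011 (wild-type), 312600 (Lgals7-/-) and 354499 (Tg46) counts, which is low for a transcriptome. Values are given as counts and as CPM, the usual depth-normalised unit, after scaling by TMM, a method that aligns libraries on the bulk of their genes. For a count of 0 the level of 3 counts was used, which is 16.2, 9.40 and 9.29 CPM in wild-type, Lgals7-/- and Tg46. The exact 95% interval reaches higher, to 19.9 CPM for 0 counts in wild-type. Intervals are exact 95% intervals of the counts and cover counting error only, since sequenced reads are not independent molecules. The call rule asked for a ratio of at least 2-fold in either direction together with an interval that excluded 1. A call compares 2 libraries and not genotypes. Lgals7 itself had 0 (wild-type), 2 (Lgals7-/-) and 4 (Tg46) counts, too few to check the genotype labels. Olfactory receptor genes, which the skin is not known for expressing, stood at 2.94, 2.92 and 2.84 CPM per kb of exon (1107 genes summed), and the keratins are set against that level below.

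The summed epidermal keratins were higher in the Lgals7-/- and Tg46 libraries, called the mutant libraries below, than in wild-type. Among the 10 genes, only Krt6a differed between the mutant libraries by the call rule. Summed over the 10 genes, the wild-type library had 110 counts, Lgals7-/- 470 and Tg46 596. These are 595 CPM (489 to 717), 1472 CPM (1342 to 1612) and 1846 CPM (1701 to 2000.2). The summed level was 2.47-fold higher in Lgals7-/- than in wild-type (2.01 to 3.08), 3.09-fold higher in Tg46 than in wild-type (2.53 to 3.84) and 1.25-fold higher in Tg46 than in Lgals7-/- (1.11 to 1.42). In bulk tissue, fewer keratinocytes and less keratin RNA per keratinocyte cannot be told apart.

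The 10 genes lie in the keratin clusters of chromosome 11 (type I) and chromosome 15 (type II), all on the minus strand. Krt6a (Entrez 16687) spans 101689910 to 101694307 on chromosome 15 of GRCm38; Krt6b, its near copy, lies beside it. The Krt6a and Krt6b coding sequences differed at 37 of 1659 aligned bases (97.8% identity), and the longest run without a difference was 280 bases. Of the stretches of 50 bases in the Krt6a transcript, 43.6% also occurred in the Krt6b transcript. The labels do not say how reads that fit both were counted. The 2 genes are shown over the 60 coding bases in which they differ most, because the result that sets Tg46 apart from Lgals7-/- rests on Krt6a. Capitals mark the 10 differing bases, and the stretches are coding bases 817 to 876 of each gene, at chr15:101692484-101692543 for Krt6a and chr15:101678303-101678362 for Krt6b (GENCODE, GRCm38, minus strand).
Krt6a: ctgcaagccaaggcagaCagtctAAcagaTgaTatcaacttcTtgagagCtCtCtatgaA
Krt6b: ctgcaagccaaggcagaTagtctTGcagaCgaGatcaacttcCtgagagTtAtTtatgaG
Other stretches held no difference, and a read lying wholly within one could not be assigned to either gene. Coding bases 34 to 93 are an example, at chr15:101694156-101694215 in Krt6a and chr15:101680131-101680190 in Krt6b.
Krt6a and Krt6b: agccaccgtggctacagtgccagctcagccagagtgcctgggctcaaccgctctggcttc
The other close copies shared less. Of the 50-base stretches of Krt14, 11.4% occurred in Krt16 and 3.34% in Krt17, and 6.73% of those of Krt6a occurred in Krt5. Krt1 shared 0% with Krt2 or Krt77.

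**Figure D1:**
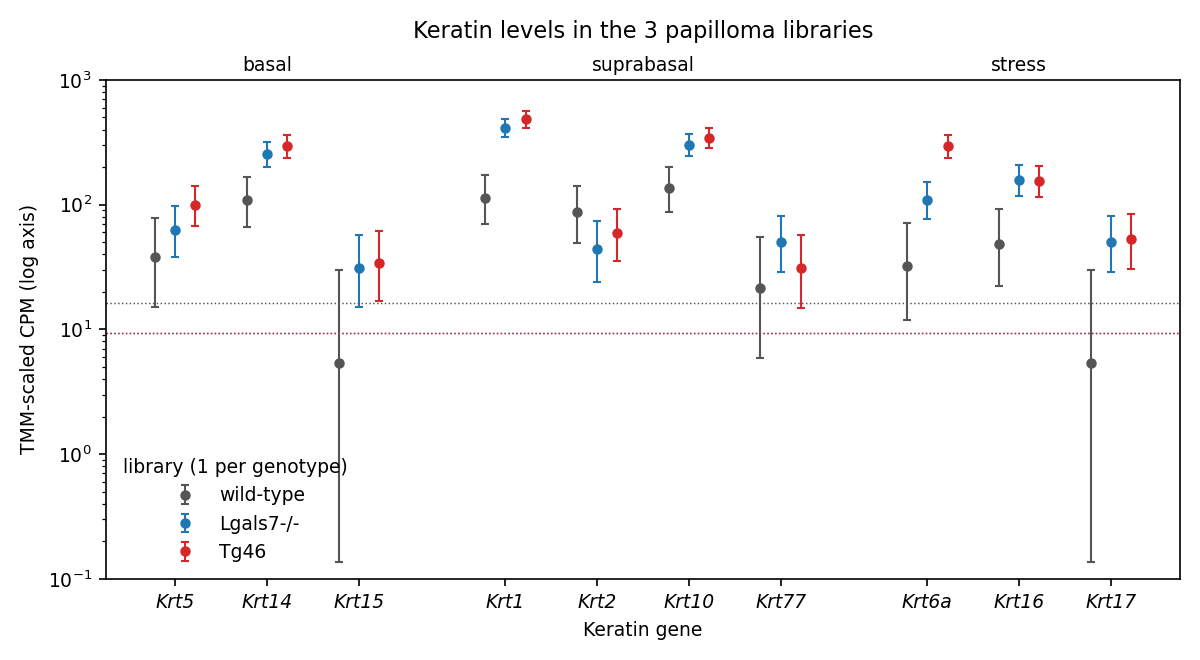
Level of each keratin gene (TMM-scaled CPM, log axis) in the wild-type, Lgals7-/- and Tg46 libraries, with exact 95% Poisson intervals of the counts; dotted lines mark the level of 3 counts in each library. Wild-type is the lowest of the 3 libraries for 9 of the 10 genes, and for Krt2 it is the highest.

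Among the basal keratins, Krt14, the type I partner of the basal layer, was called higher in both mutant libraries than in wild-type. It had 20 (wild-type), 81 (Lgals7-/-) and 95 (Tg46) counts, that is 108, 254 and 294 CPM. The mutant libraries were close to each other and both lay above wild-type. Krt14 was 2.30-fold higher in Lgals7-/- (1.42 to 4.04) and 2.67-fold higher in Tg46 (1.67 to 4.65) than in wild-type, and the ratio of Tg46 to Lgals7-/- was 1.16 (0.853 to 1.58). The Tg46 transgene uses the Krt14 promoter, and the labels do not say whether it carries transcribed Krt14 sequence. Krt5, the type II partner, had 7 (wild-type), 20 (Lgals7-/-) and 32 (Tg46) counts. Against wild-type it was called higher in Tg46, at 2.48-fold (1.14 to 7.03), whereas the ratio of Lgals7-/- to wild-type was 1.58 (0.672 to 4.63). Krt15, a keratin of basal cells and of the hair follicle bulge, held 1, 10 and 11 counts. Its ratios to wild-type of 4.06 (0.824 to 251) and 4.39 (0.916 to 271) passed 2-fold, but the intervals included 1. In wild-type its 1 count is 1.08 times the olfactory receptor level per kb (0.0273 to 6.03), so Krt15 was not detectable above that level there. Summed, the basal class stood at 151.4 CPM (wild-type), 348 (Lgals7-/-) and 427 (Tg46).

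Krt1 and Krt10, the suprabasal pair, held the most counts of the 10 keratins in each library. Krt1, the type II partner, had 21 (wild-type), 132 (Lgals7-/-) and 156 (Tg46) counts. It was 3.57-fold higher in Lgals7-/- (2.29 to 6.08) and 4.17-fold higher in Tg46 (2.69 to 7.07) than in wild-type. Krt1 was the suprabasal keratin whose intervals lay wholly beyond 2-fold in both comparisons. Krt10, the type I partner, held 25, 96 and 111 counts and was 2.19-fold (1.42 to 3.61) and 2.50-fold (1.64 to 4.10) higher. Neither gene separated Tg46 from Lgals7-/-, with ratios of 1.17 (0.921 to 1.48) for Krt1 and 1.14 (0.862 to 1.52) for Krt10.

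Krt2, a type II keratin of the upper spinous and granular layers, did not follow Krt1 and Krt10. It had 16 (wild-type), 14 (Lgals7-/-) and 19 (Tg46) counts, and wild-type was highest once depth was taken into account, at 86.5 CPM against 43.9 and 58.8. The ratios to wild-type were 0.509 (0.229 to 1.11) in Lgals7-/- and 0.677 (0.331 to 1.41) in Tg46. Krt2 was called in neither, and it was the only one of the 10 genes with ratios to wild-type below 1. The Krt1 and Krt2 intervals do not overlap in either comparison with wild-type, nor do those of Krt10 and Krt2. Krt77, a further type II keratin of differentiated epidermis and sweat ducts, held 4, 16 and 10 counts. Its ratios of 2.12 (0.748 to 9.53) in Lgals7-/- and 1.34 (0.413 to 6.26) in Tg46 against wild-type had intervals that included 1. The suprabasal class summed to 357 CPM (wild-type), 808 (Lgals7-/-) and 917 (Tg46).

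The start regions of Krt10 and Krt2 are shown because these suprabasal genes parted. RefSeq promoter windows (250 bases before to 50 after a start, GRCm38.p6) matched 5 of the 10 genes, and 4 of these windows lie within 10 bases of the annotated gene start. The window of Krt14 lies at a start inside the gene and is not shown. The last 100 bases before the start were as follows, with a match to TATAAA in capitals.
Krt10 (chr11:99389365-99389464, minus strand): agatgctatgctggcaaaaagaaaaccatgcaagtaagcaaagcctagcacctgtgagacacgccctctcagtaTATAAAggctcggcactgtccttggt
Krt2 (chr15:101818170-101818269, minus strand): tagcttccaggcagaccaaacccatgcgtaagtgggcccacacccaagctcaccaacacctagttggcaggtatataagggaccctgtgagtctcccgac
On both strands of the 300-base windows, TATAAA matched in Krt10, 26 bases before the start, and in none of Krt2, Krt5 and Krt77. It occurs in 13.6% of all 32851 windows. Only these exact letters were counted, and near variants, such as the tatataag in the Krt2 stretch above, were not. The difference between Krt10 and Krt2 here is therefore one of exact letters. TGANTCA, the letters bound by AP-1, the factor through which TPA is known to act, and GGGCGG, those bound by Sp1, had 0 matches in these 4 windows, against 7.81% and 35.7% of all windows. These matches describe letters in the windows and not binding.

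All 3 stress keratins were called higher than wild-type in both mutant libraries. Krt16, the type I stress keratin, had 9 (wild-type), 50 (Lgals7-/-) and 50 (Tg46) counts. It was 3.08-fold higher in Lgals7-/- (1.57 to 7.44) and 3.04-fold higher in Tg46 (1.55 to 7.36) than in wild-type, and its Tg46 to Lgals7-/- ratio was 0.989 (0.655 to 1.49). Krt17, a type I keratin of hair follicles and wounded skin, held 1, 16 and 17 counts. Its ratios of 6.37 (1.44 to 389) and 6.68 (1.53 to 407) rest on the 1 count in wild-type, which is 1.18 times the olfactory receptor level per kb (0.0300 to 6.60).

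Krt6a, the type II stress keratin, showed the only called difference between the mutant libraries. It had 6 (wild-type), 35 (Lgals7-/-) and 95 (Tg46) counts, that is 32.4 CPM (11.9 to 70.6), 109.6 CPM (76.4 to 152) and 294 CPM (238 to 359.7). The 3 libraries were ordered with Tg46 above Lgals7-/- and Lgals7-/- above wild-type. Krt6a was 3.16-fold higher in Lgals7-/- than in wild-type (1.41 to 9.83), 8.42-fold higher in Tg46 than in wild-type (4.02 to 25.3) and 2.66-fold higher in Tg46 than in Lgals7-/- (1.80 to 4.08). Krt6b, the near copy shown above, held 9, 26 and 51 counts. It was 3.11-fold higher in Tg46 than in wild-type (1.58 to 7.50), and its Tg46 to Lgals7-/- ratio of 1.92 (1.19 to 3.24) missed 2-fold with an interval above 1. Of the counts of both copies, Krt6a took 40% in wild-type (exact 95% interval 16.3 to 67.7), 57.4% in Lgals7-/- (44.1 to 70.0) and 65.1% in Tg46 (56.7 to 72.8), and these intervals overlap. The ratios of Krt6a and Krt6b are uncertain to the extent that reads were split between the copies. Exons of Krt6a also overlap 471 bases of an antisense gene, Gm49428, and 129 bases of an annotated miRNA gene, Gm44342, on the opposite strand. Krt5 (129 bases, Gm44323) and Krt10 (146 bases, Gm11940) have such overlaps too. None of these neighbours has a row in the table. The labels do not say if counting was strand-specific. The part of these counts that comes from the other strand was not tested.

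**Figure D2:**
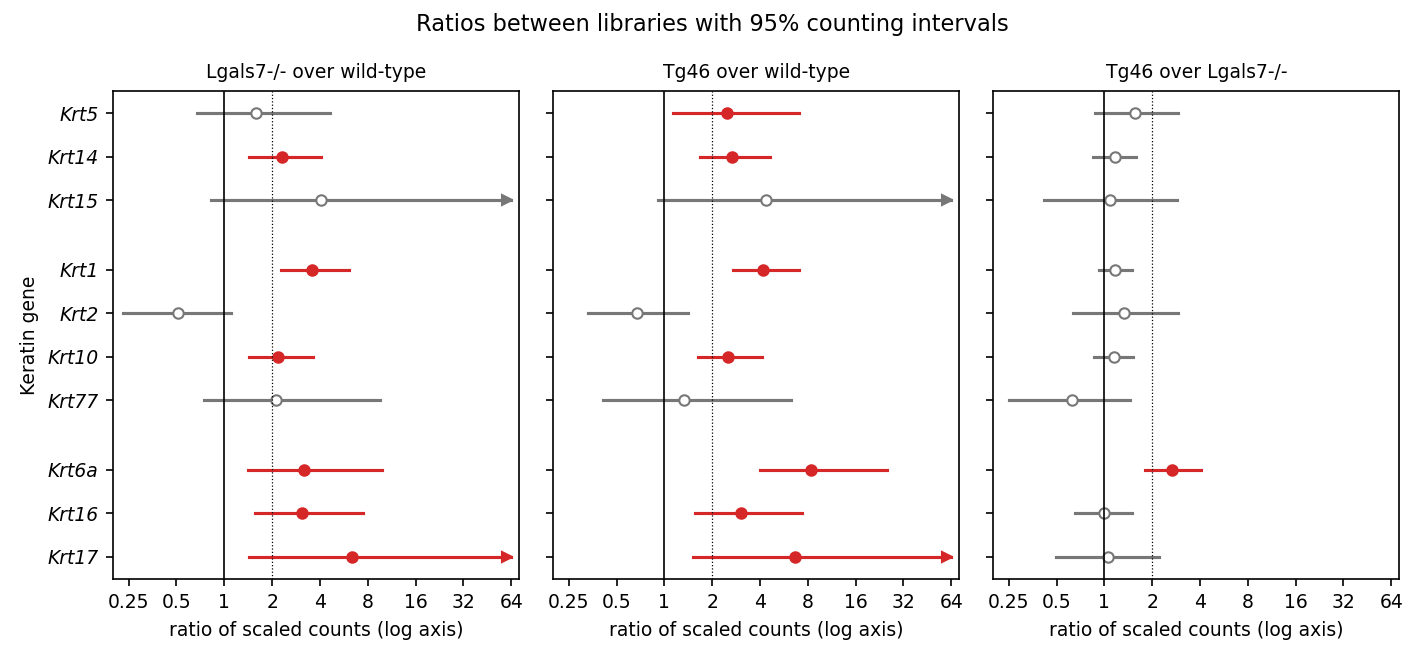
Ratio of scaled counts (log axis, 0.5 counts added to each library) of each keratin in the 3 comparisons, with exact 95% counting intervals; filled red points are called higher, open grey points are not called, arrowheads mark intervals that run past 64, and the dotted line is 2-fold. Against wild-type 6 genes in Lgals7-/- and 7 in Tg46 are called higher, and in Tg46 over Lgals7-/- only Krt6a is.

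By the call rule, 6 of the 10 keratins were higher in Lgals7-/- than in wild-type, 0 were lower and 4 were neither. Over all 12940 genes that passed the filter, 16.2% were called higher in that comparison and 11.4% lower. In Tg46 over wild-type 7 of 10 were called higher, 0 lower and 3 neither, against 16.2% higher and 11.4% lower over all genes. In Tg46 over Lgals7-/- 1 of 10 was called higher, against 8.53% of all genes, and 0 were called lower, against 7.58%, so that share is near the background. Of the 10, Krt5, Krt15, Krt77, Krt6a, Krt16 and Krt17 had fewer than 10 counts in wild-type and passed the filter only through the other libraries, so the counts and medians against wild-type describe these genes and support nothing further. Both comparisons with wild-type use the same wild-type library, so the calls against it are not independent of each other. The median log2 ratio of the 10 keratins was 1.41 in Lgals7-/- over wild-type, 1.51 in Tg46 over wild-type and 0.20 in Tg46 over Lgals7-/-. The medians over all genes tested were 0.24, 0.26 and -0.016. The keratin medians therefore lay 1.17, 1.25 and 0.22 above those of all genes, differences that do not depend on the scaling of the libraries. The split of calls over all genes does depend on it. In Tg46 over wild-type 58.8% of calls were higher ones, and 43.9% with scaling by total counts. In Tg46 over Lgals7-/- these shares were 52.9% and 35.6%, or 40.5% with totals that leave out the 50 most abundant genes. In Tg46 over wild-type that last scaling gave 46.9%.

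**Figure D3:**
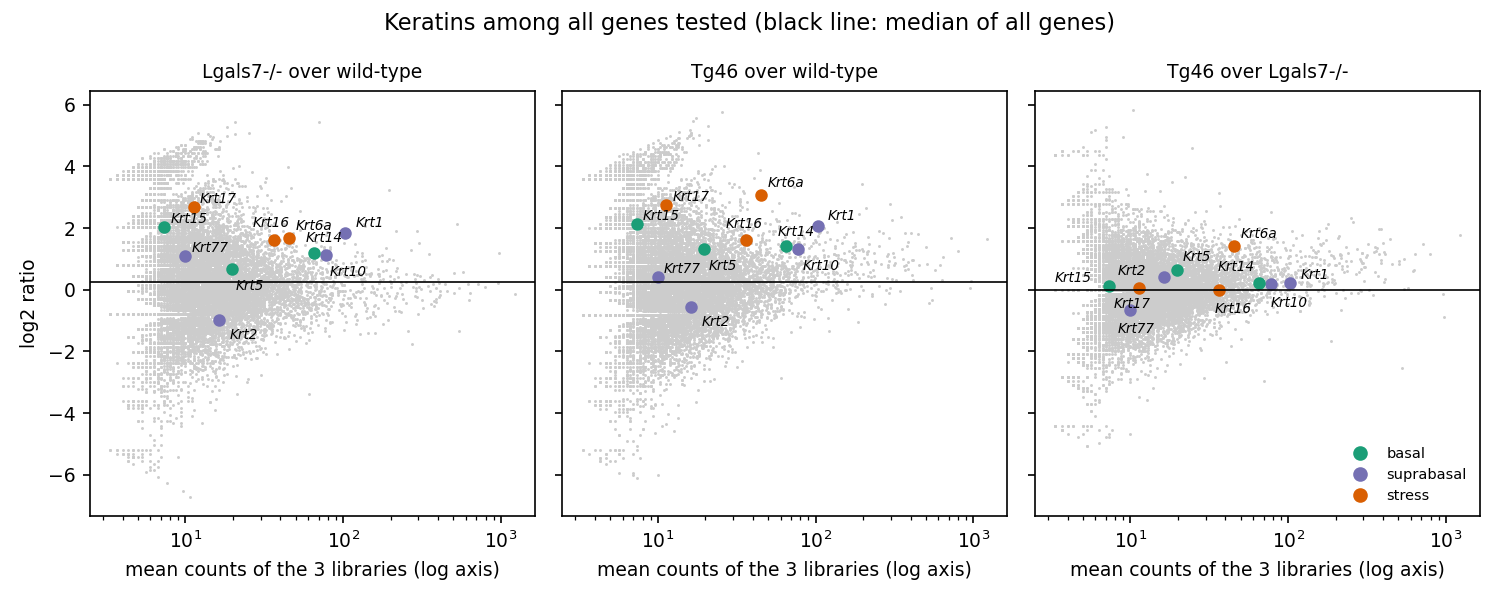
Log2 ratio of every gene tested (grey) against its mean count over the 3 libraries (log axis), with the 10 keratins coloured by class and the median of all genes as a black line. Krt1, Krt14, Krt10, Krt6a and Krt16 lie above the median in both comparisons with wild-type, Krt2 lies below it, and in Tg46 over Lgals7-/- Krt6a lies highest of the 10.

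Within a library, the makeup of the keratin counts does not depend on library scaling. The basal class took 25.5% of the counts at the 10 genes in wild-type (17.6 to 34.6), 23.6% in Lgals7-/- (19.8 to 27.7) and 23.2% in Tg46 (19.8 to 26.8). The suprabasal class took 60% (50.2 to 69.2), 54.9% (50.3 to 59.5) and 49.7% (45.6 to 53.8). The stress class took 14.5% (8.55 to 22.5), 21.5% (17.9 to 25.5) and 27.2% (23.6 to 30.9), and its intervals in wild-type and Tg46 do not overlap. The suprabasal to basal ratio was 2.36, 2.32 and 2.14 in wild-type, Lgals7-/- and Tg46, with overlapping intervals. Set against wild-type, the stress to suprabasal ratio was 2.25 times as high in Tg46 (1.24 to 4.31) and 1.61 times as high in Lgals7-/- (0.873 to 3.13). The stress to basal ratio was 2.05 times as high in Tg46 as in wild-type (1.02 to 4.24), 1.59 times as high in Lgals7-/- as in wild-type (0.778 to 3.34), and 1.29 times as high in Tg46 as in Lgals7-/- (0.893 to 1.86). Without Krt6a, the Tg46 values against wild-type were 1.49 for stress to suprabasal and 1.36 for stress to basal. Between Tg46 and Lgals7-/- the stress to suprabasal ratio differed 1.40-fold (1.03 to 1.91), and without Krt6a the same quantity was 0.885 and stress to basal 0.817, so the direction rests on Krt6a.

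**Figure D4:**
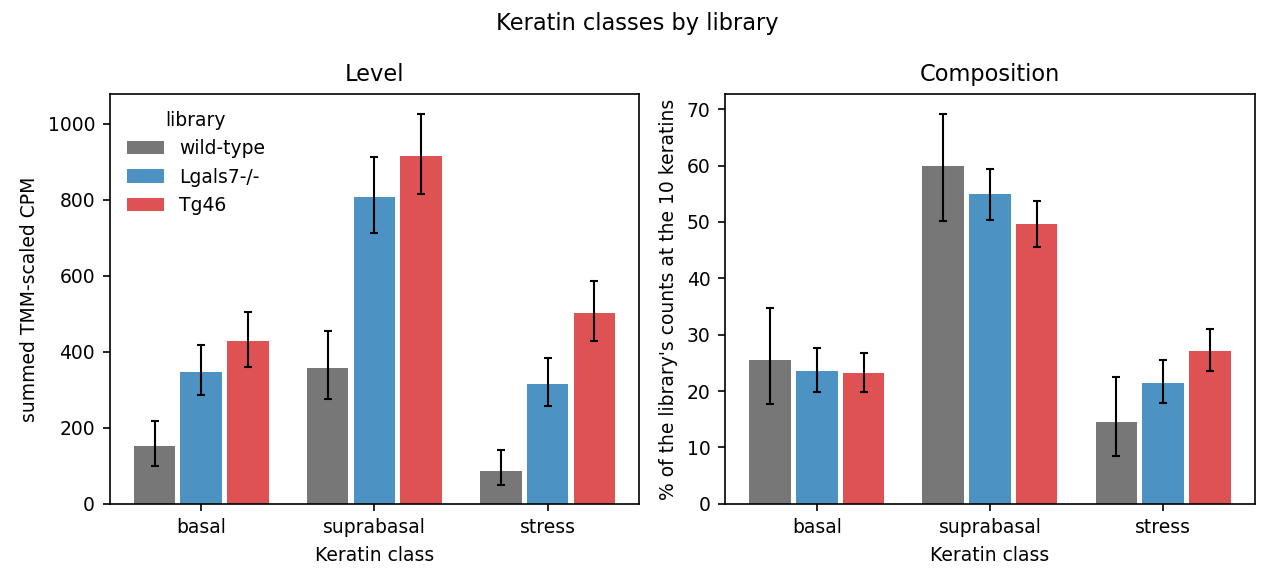
Left, summed level of each keratin class (TMM-scaled CPM, bars) with exact 95% Poisson intervals; right, share of each library's counts at the 10 keratins that falls to each class, with exact Clopper-Pearson 95% intervals. The levels of all 3 classes (left) are lowest in wild-type, and the stress share (right) goes from 14.5% in wild-type to 27.2% in Tg46.

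Per kb of exon, the scale on which genes can be compared with each other, Krt10 (63.9 CPM per kb), Krt14 (63.7) and Krt1 (46.3) headed the wild-type library. Krt1, Krt14 and Krt10 headed Lgals7-/- (168, 149 and 142 CPM per kb) and Tg46 (197, 173 and 163). Neighbours in this order had ratios whose intervals included 1 in every case except 2, namely Krt16 (100.1) over Krt6a (48.1) in Lgals7-/- and Krt16 (99.0) over Krt5 (45.1) in Tg46. Krt6a took the fifth place in Lgals7-/- and the fourth in Tg46, at 129 CPM per kb, and the seventh in wild-type at 14.2. Krt2 went from the fourth place in wild-type (33.1) to the last in Lgals7-/- (16.8) and the eighth in Tg46 (22.5). Against olfactory receptor genes per kb, Krt14 stood 21.6-fold higher in wild-type, 51.1-fold in Lgals7-/- and 61.0-fold in Tg46. Krt77, at 2.51-fold in wild-type (0.682 to 6.43), was with Krt15 and Krt17 one of 3 keratins not above that level there beyond counting error.

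The ratio of type II to type I partners per kb was far from even for the basal pair and near even for the suprabasal pair. Krt5 stood at 0.271 times Krt14 in wild-type (0.0966 to 0.666), 0.191 in Lgals7-/- (0.111 to 0.314) and 0.260 in Tg46 (0.169 to 0.392), with every interval below 1. Krt1 stood at 0.723 times Krt10 (0.385 to 1.35), 1.18 (0.903 to 1.56) and 1.21 (0.943 to 1.56), with every interval including 1. Krt6a stood at 0.458 times Krt16 in wild-type (0.134 to 1.44), 0.481 in Lgals7-/- (0.303 to 0.756) and 1.31 in Tg46 (0.917 to 1.88). The Lgals7-/- and Tg46 intervals of this pair do not overlap. These ratios leave out Krt6b, the near copy, which stood at 21.8 (wild-type), 36.4 (Lgals7-/-) and 70.7 (Tg46) CPM per kb. They are also uncertain to the extent that reads were split between the copies. Against Krt17, Krt6a stood at 1.49 in Lgals7-/- (0.803 to 2.88) and 3.80 in Tg46 (2.26 to 6.80), and in wild-type the ratio rests on 1 count of Krt17.

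The rest of the keratin family held calls in both directions. Of the 44 other keratin genes in the table, 25 passed the filter. In Lgals7-/- over wild-type 5 of the 25 were called higher and 4 lower (median log2 ratio 0.43), and in Tg46 over wild-type 3 were called higher and 5 lower (median 0.044). In Tg46 over Lgals7-/- 4 were called higher and 5 lower (median -0.71). These are 20% higher and 16% lower, 12% and 20%, and 16% and 20%. Over all genes the shares were 16.2% and 11.4% in each comparison with wild-type, near those of these keratins, and 8.53% and 7.58% in Tg46 over Lgals7-/-. The largest called ratio against wild-type was that of Krt78, a type II keratin of stratified epithelia, which held 1 count (wild-type), 24 (Lgals7-/-) and 23 (Tg46). It was 9.46-fold (2.27 to 572) and 8.97-fold (2.14 to 543) higher. Krt74, an inner root sheath keratin, held 14, 2 and 1 counts and was 10.01-fold lower in Lgals7-/- (2.78 to 110) and 16.9-fold lower in Tg46 (3.72 to 1033).

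Simple epithelial keratins, which line glands and ducts, were scarce. Of Krt7, Krt8, Krt18, Krt19, Krt20 and Krt23, only Krt20 passed the filter, with 10, 15 and 6 counts, and it was not called. Of 12 measured keratins of mucosal and other epithelia, Tg46 over Lgals7-/- gave 4 higher and 0 lower calls, against 8.53% and 7.58% of all genes. These were Krt80 (8.90-fold, 1.93 to 546), whose exons overlap a gene on the opposite strand, Krt79 (3.63-fold, 1.28 to 16.3), Krt13 (3.33-fold, 1.27 to 12.3), a mucosal keratin, and Krt76 (2.79-fold, 1.02 to 10.4), which has such an overlap too. Against wild-type, 1 of the 12 was called higher and 3 lower in Lgals7-/-, and 3 higher and 2 lower in Tg46. These are 8.33% and 25%, and 25% and 16.7%, against 16.2% higher and 11.4% lower over all genes in each comparison. Of 12 measured hair and inner root sheath keratins, Tg46 over Lgals7-/- gave 0 higher and 5 lower calls (41.7% lower, against 7.58% of all genes). Against wild-type, 4 of these 12 were higher and 1 lower in Lgals7-/-, and 0 were higher and 3 lower in Tg46. These are 33.3% and 8.33%, and 0% and 25%, against the same 16.2% and 11.4% of all genes. Of the called hair keratins, Krt25 (2, 23 and 5 counts), Krt33a (3, 16 and 4), Krt71 (1, 18 and 9) and Krt72 (1, 13 and 6) passed the filter only through Lgals7-/-. Krt74 passed it only through wild-type, so the shares of hair keratins describe the genes and support nothing further. Krt35, a hair cortex keratin, had 28 (wild-type), 78 (Lgals7-/-) and 15 (Tg46) counts. The median log2 ratio of these hair keratins in Tg46 over Lgals7-/- was -1.03, whereas 8 of the 10 epidermal keratins had Tg46 to Lgals7-/- ratios above 1.

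**Figure D5:**
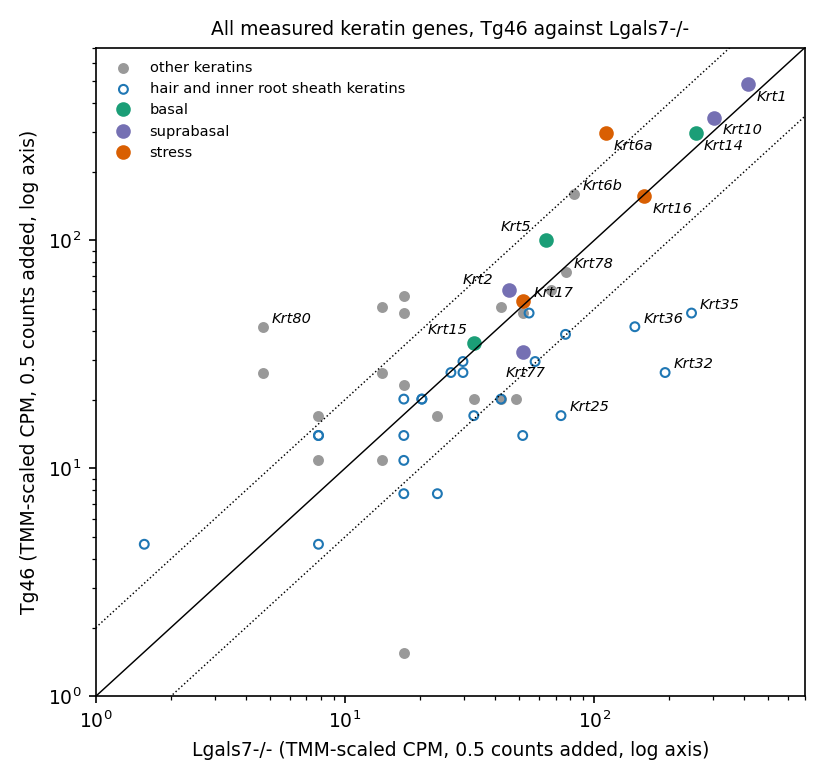
Level of every keratin gene in Tg46 against Lgals7-/- (TMM-scaled CPM with 0.5 counts added, log axes); the solid line is equality and dotted lines are 2-fold. Krt6a lies beyond 2-fold towards Tg46, the other 9 epidermal keratins lie within 2-fold, and the hair keratins Krt35, Krt32, Krt36 and Krt25 lie beyond 2-fold towards Lgals7-/-.

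Partners of the keratins were read from lists of genes by role. In each list, a gene with few counts in 1 library could pass the filter through the library where it was higher. The shares called in these lists therefore describe the genes and support nothing further. Keratin filaments are anchored at desmosomes and hemidesmosomes, and all 21 anchor genes listed passed the filter. In Lgals7-/- over wild-type 7 were called higher and 2 lower (median log2 ratio 0.78), in Tg46 over wild-type 5 and 2 (0.66), and in Tg46 over Lgals7-/- 1 and 2 (-0.016). The shares called higher were 33.3%, 23.8% and 4.76%, against 16.2%, 16.2% and 8.53% of all genes, and 9.52% were called lower each time, near the 11.4%, 11.4% and 7.58% of all genes. Dsp, desmoplakin, which ties keratins to the desmosome, held 54, 203 and 274 counts. It was 2.16-fold higher in Lgals7-/- (1.61 to 3.00) and 2.88-fold higher in Tg46 (2.16 to 3.97) than in wild-type, and it has an opposite-strand overlap. Ppl, periplakin, held 11, 59 and 68 counts and was 3.00-fold (1.62 to 6.56) and 3.41-fold (1.86 to 7.43) higher. Pkp1, plakophilin 1, went the other way in Lgals7-/-, from 31 counts to 19, and was 2.79-fold lower (1.54 to 5.28).

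Genes that bundle keratins or join them to the cornified envelope had 15 of 17 members measured. In Lgals7-/- over wild-type 7 were called higher and 2 lower (median log2 ratio 1.41), in Tg46 over wild-type 6 and 1 (1.43), and in Tg46 over Lgals7-/- 1 and 1 (0.27). The shares called higher were 46.7%, 40% and 6.67%, against 16.2%, 16.2% and 8.53% of all genes, and those called lower, 13.3%, 6.67% and 6.67%, compare with 11.4%, 11.4% and 7.58%. Sbsn, suprabasin, held 5 counts in wild-type and 61 in Tg46 and was 6.40-fold higher (2.84 to 22.3). Tgm1, a transglutaminase that crosslinks the envelope, was 5.84-fold higher in Tg46 (1.79 to 62.4), with an opposite-strand overlap. Lce1a1 had 0 (wild-type), 13 (Lgals7-/-) and 16 (Tg46) counts. Against the level of 3 counts in wild-type these are 2.51-fold and 3.05-fold higher, and the exact intervals start at 1.77 and 2.21. Sprr1a, a small proline-rich envelope protein, went the other way, with 16 (wild-type), 4 (Lgals7-/-) and 2 (Tg46) counts.

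Among 20 measured regulators of keratin genes, 2 were called higher and 0 lower in Lgals7-/- over wild-type, 3 and 0 in Tg46 over wild-type, and 4 and 1 in Tg46 over Lgals7-/- (medians 0.31, 0.84 and 0.15). The shares called higher, 10%, 15% and 20%, were below the 16.2% of all genes against wild-type and above the 8.53% in Tg46 over Lgals7-/-. Those called lower, 0%, 0% and 5%, compare with 11.4%, 11.4% and 7.58% of all genes. Klf4, a transcription factor of differentiating keratinocytes, held 3, 7 and 32 counts. It was 5.32-fold higher in Tg46 than in wild-type (1.91 to 31.2) and 4.28-fold higher than in Lgals7-/- (1.96 to 12.1). Cebpb, a factor of suprabasal differentiation, held 0, 8 and 23 counts and was 2.73-fold higher in Tg46 than in Lgals7-/- (1.23 to 7.35), with an opposite-strand overlap. Nfe2l2, a regulator of the oxidative stress response, held 1 count in wild-type and 14 in Lgals7-/- and was 5.60-fold higher (1.23 to 343). Jun, an AP-1 subunit, held 12 counts in Lgals7-/- and 1 in Tg46 and was 8.43-fold lower in Tg46 (1.80 to 519), also with an overlap.

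Only 7 of 18 barrier stress and alarmin genes, which accompany stress keratins in inflamed skin, passed the filter. None was called in Lgals7-/- over wild-type, 3 were called higher in Tg46 over wild-type and 2 in Tg46 over Lgals7-/-, with 0 lower in each (medians -0.096, 0.91 and 1.02). With 7 genes these calls are 42.9% and 28.6%, against 16.2% and 8.53% of all genes. The genes called had few counts in the library compared against and passed the filter through Tg46, where they were higher. These shares therefore describe the genes and support nothing further. Areg, amphiregulin, a ligand of the EGF receptor, held 3, 5 and 18 counts and was 3.33-fold higher in Tg46 than in Lgals7-/- (1.27 to 12.3). Hbegf, another such ligand, held 1 count in wild-type and 19 in Tg46 and was 7.45-fold higher (1.73 to 452). Il1f6, an IL-1 family cytokine, held 0 counts in wild-type and 15 in Tg46. It was 2.86-fold higher against the level of 3 counts, with an exact interval that starts at 2.05. Defb14, a beta-defensin, held 0 counts in Lgals7-/- and 11 in Tg46. It was 3.63-fold higher against the level of 3 counts, with an exact interval that starts at 2.48.

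Markers of keratinocytes other than keratins did not all follow the keratins. Trp63, the transcription factor of stratified epithelium, had 17 (wild-type), 18 (Lgals7-/-) and 21 (Tg46) counts, which is 91.9, 56.4 and 65.0 CPM. Cdh1, E-cadherin, held 17, 24 and 19 counts, or 91.9, 75.2 and 58.8 CPM. Neither was called in any comparison, and both had ratios to wild-type below 1. Sfn, stratifin, held 5, 8 and 43 counts and passed the call rule as higher in Tg46 over Lgals7-/- (5.06-fold, 2.47 to 13.1), as was Perp, a desmosome protein, with 2, 2 and 15 counts. Summed over Trp63, Perp, Dsp, Sfn and Cdh1, the level was 514 CPM (wild-type), 799 (Lgals7-/-) and 1152 (Tg46), most of it from Dsp.

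Markers of other cell types were present in every library. Summed CPM of the fibroblast list (7 genes) ranged from 389 in wild-type to 508 in Tg46, of the endothelial list (5 genes) from 259.5 to 304, of the myeloid list (7 genes) from 276 to 404 and of the lymphoid list (7 genes) from 172 to 200.1. The adipocyte list (5 genes) stood at 48.7 CPM (wild-type), 107 (Lgals7-/-) and 146 (Tg46). The hair follicle list (10 genes) stood at 1217, 4376 and 960 CPM and was dominated by Tchh, with 160, 1202 and 209 counts. The sebaceous list (6 genes) stood between 163 and 168 CPM, the skeletal muscle list (7 genes) between 976 and 1227, mostly Ttn, and the melanocyte list (5 genes) at 1173, 908 and 2007, mostly Pmel. Genes at 0 were Lum, S100a8, Cd4 and Plin1 in wild-type, Mgst1, Cd3g and Ms4a1 in Lgals7-/-, and Mgst1, Awat2 and S100a8 in Tg46. The part of these cell types in the keratin differences was not tested.

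The genes with the pattern most like that of the summed keratins were sought among 354 genes with at least 200 counts in all, by the share of a gene's CPM that falls to each library. The keratins' shares were 15.2% (wild-type), 37.6% (Lgals7-/-) and 47.2% (Tg46). Among the 5 closest were Dsp, Cfap43, Bace1 and Rbm39, whose shares differed from those of the keratins by 3.66, 3.96, 4.46 and 4.51 percentage points in sum. Dsp and Bace1 have opposite-strand overlaps. With 3 libraries, the likeness is over 3 points.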

How the data were processed

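Papilloma RNA (3 tumours pooled per genotype) was purified with TRIzol and an RNeasy kit and sequenced from an Illumina RNA library kit, per the labels' protocols. The authors deposited 1 table of raw counts by Entrez gene for the 3 libraries. The build is mm10, per the submitters' processing notes. The sources used here do not name the aligner, counter, annotation or use of strand. RefSeq symbols (GRCm38) were found for 23968 of the 24028 identifiers. Exon lengths (protein-coding transcripts) and overlaps came from GENCODE M21.

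TMM factors (1.08 for wild-type, 1.02 for Lgals7-/-, 0.911 for Tg46) were computed on all genes with edgeR 4.0.16 under R 4.3.3. The filter was 10 counts in at least 1 library. Ratios had 0.5 counts added, but the Clopper-Pearson intervals of the pair of counts did not. With 1 library per genotype there are no replicates to test, so no p-values are given. A fold against 0 counts is given against 3 counts per library and takes the other count as exact. Ratios and intervals were tested on simulated libraries with counting error alone, which cannot show how they hold under variation between tumours. DESeq2 1.42.0 size factors were an alternative. Scripts ran in Python 3.11.15 with pandas 2.3.3, scipy 1.17.1 and numpy 2.4.6.

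The members and lists were chosen with earlier results of these data known. Named genes were the 10 members, then up to 4 called genes of largest log2 ratio per list and comparison, of which examples are given. Krt20, Krt36, Krt6b and the marker genes were named outside this rule, after their values were seen. Of the 5 genes closest in pattern to the keratins, 1 is not reported here.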

Additional observations from a re-analysis of the deposited data

How the results depend on the processing

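The ratios of single keratins and the levels of the classes stayed within their counting intervals under the alternatives run (120 of 120 and 51 of 51 recomputed values), although some calls changed. The stress to basal and stress to suprabasal ratios of Tg46 over Lgals7-/- turned below 1 under alternatives given below. No paired analysis was possible because only 1 library exists per genotype, and none could be left out for the same reason. The limit is depth: Krt15, Krt17 and Krt77 rest on 1 to 4 counts in wild-type. With at least 100 counts required in 1 library, 2 keratins (Krt1 and Krt10) remained to be called, 2 higher against wild-type in each mutant library and 0 between them. Krt6a, with 95 counts in Tg46, was dropped by that filter, so its difference between the mutant libraries could not be called there. Of the 347 genes left, 39, 134 and 105 were called higher and 14, 3 and 4 lower, and no other keratin was left. The order is Lgals7-/- against wild-type, then Tg46 against wild-type, then Tg46 against Lgals7-/-, here and below. With an interval wholly beyond 2-fold, 1, 2 and 0 keratins were called higher, all genes 338, 389 and 149 higher and 366, 350 and 83 lower, and other keratins 1, 1 and 0 higher and 2, 1 and 2 lower. Without genes that have an opposite-strand exon, which drops Krt5, Krt10 and Krt6a, 4 of the 7 keratins left were called higher in Tg46 against wild-type and 0 against Lgals7-/-. Of 8630 genes, 1268 and 600 were then called higher in these comparisons. Of 19 other keratins, 2 in Lgals7-/- and 3 in Tg46 were lower against wild-type, and 2 were higher in Tg46 over Lgals7-/-. With libraries thinned to the smallest total, 9 keratins passed the filter. Of these, 1 (Krt2, ratio 0.334) was called lower in Lgals7-/- against wild-type, and 2 (Krt6a at 2.73 and Krt5 at 2.68) higher in Tg46 against Lgals7-/-. Of 8403 genes, 1138, 1135 and 605 were called higher, and 426 were lower in the last comparison. Of 16 other keratins, 3, 1 and 0 were higher. The stress to basal ratio of Tg46 over Lgals7-/-, 1.29 as reported, was 0.858 when thinned and 0.817 without Krt6a, and stress to suprabasal went from 1.40 to 0.885 without Krt6a. With 5 counts added, 4 epidermal keratins in Lgals7-/- and 6 in Tg46 were called higher against wild-type, where 6 and 7 are reported. Of all genes 928 and 1011 were then called higher against wild-type, and 3 other keratins in Lgals7-/-. By fold alone, 8 epidermal keratins were higher against wild-type in each mutant library. Of all genes, 3640, 3753 and 1821 were then higher, and 1634 lower in the last comparison. Other keratins were 6 higher and 8 lower in Tg46 against wild-type and 8 lower against Lgals7-/-. Scaled by total counts, 6 epidermal keratins were called higher and 8 other keratins lower in Tg46 over wild-type. Totals without the 50 most abundant genes also gave 6 epidermal keratins higher there. With TMM factors from genes passing the filter, 5 epidermal keratins were called higher in Lgals7-/- over wild-type. With a mean of at least 30 counts, an alternative chosen after seeing the data, 171, 329 and 204 of 1445 genes were higher and 109, 54 and 26 lower. Not divided by length, Krt6a over Krt16 in Tg46 was 1.9. The cause of changes other than fewer genes or counts was not tested.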
